A study of Monodelphis domestica and Mus musculus with 2 samples.

Results

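Synaptotagmins are a family of membrane proteins that carry paired C2 domains and serve mainly as calcium sensors and regulators of vesicle fusion. The 9 members described here, Syt1, Syt2, Syt4, Syt5, Syt6, Syt7, Syt11, Syt13 and Syt17, were chosen by gene symbol, with case ignored. All 9 had a feature among the 61317 of the mouse table, and 7 had one among the 30613 of the opossum table, in which Syt5 and Syt7 carried no feature of that symbol and were not analysed here. The data are Stereo-seq counts, in which polyadenylated RNA from a tissue section is captured on a patterned chip and the unique molecular identifiers (UMIs) are summed over segmented cells. The series holds tissue cut at 10 µm from an adult male gray short-tailed opossum (Monodelphis domestica, 6 months old) and from an adult male wild-type C57BL/6J mouse (P40), neither with any treatment, with more than 1 coronal slice embedded per animal. The levels of the members were compared across the depth and the cell subclasses of primary visual cortex (V1) within each species. With 1 animal of each species, no test was possible, and no p-value is given.

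In the classical account, Syt1 and Syt2 sit on synaptic vesicles and trigger fast, synchronous transmitter release when calcium enters the terminal, whereas Syt7 binds calcium with higher affinity and serves slower release and vesicle replenishment. Syt4 and Syt11 lack full calcium binding in their C2 domains and act in the trafficking of other vesicles, including dense-core vesicles and endocytosis. In rodent cortex, Syt2 is known from parvalbumin interneurons and Syt6 from the corticothalamic neurons of layer 6.

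V1 held 4806 opossum cells in 3 regions, with a median of 1326 UMIs per cell, and 9127 mouse cells in 4 regions, with a median of 1305. The paper drew these regions by hand as columns that begin with layer 2/3 and end with layer 6. Layer 1 was therefore not part of the depth axis. Levels are given as UMIs of a gene per 10000 UMIs of all genes, summed over cells, with a 95% exact Poisson interval that covers counting error only. The regions of a species came from 1 animal, so their range does not describe the spread between animals. Levels were not compared between genes, because no length correction fits this capture, nor between species, because the genomes, annotations and RNA quality differed. Subclass labels had been transferred from the expression of the same cells, so every contrast between subclasses is a description. Labels did not separate every transcript by cell type: mouse Slc17a7, the vesicular glutamate transporter of cortical excitatory neurons, stood at 10.4 in glutamatergic subclasses and 10.9 in non-neuronal ones. The L6CT label, given to layer 6 corticothalamic neurons, carried its markers, with Foxp2 at 4.72 in opossum L6CT and 0.382 in the upper intratelencephalic subclass IT_A, and at 1.89 in mouse L6CT and 0.0976 in L2/3. Cells of the Pvalb subclass held Gad1 at 11.5 against 1.96 in glutamatergic subclasses of the opossum, and mouse Pvalb cells held it at 4.96 against 1.79. Pvalb itself had no feature of that symbol in the opossum table, and 354 opossum cells bore this subclass label, of which 197 also had the GABAergic class label. The same class label was present in 84 of 171 Sst and 19 of 38 Vip cells of the opossum, and in 144 of 169 mouse Sst cells. The non-neuronal values of the opossum rest on labels of which many did not have the non-neuronal class label: it was present in 359 of 495 Astro, 230 of 565 OD, 29 of 100 OPC, 14 of 65 Endo and 17 of 32 Micro cells. The opossum microglial label lacked C1qa, with 0 UMIs in 32 cells. No cell barcode was shared by the species, with 0 in common.

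Of the 9 mouse genes, 8 were placed on GRCm39 as annotated by GENCODE, matched by gene identifier, and are protein-coding, and the position of Syt4 is not given here. Syt1 spans chromosome 10 from 108333505 to 108846856 on the minus strand, Syt2 spans chromosome 1 from 134574290 to 134690331 on the plus strand, and Syt6 spans chromosome 3 from 103482484 to 103552885 on the plus strand. Syt7 spans chromosome 19 from 10366033 to 10430544 on the plus strand, and Syt11 spans chromosome 3 from 88632134 to 88682471 on the minus strand. Syt5 and Syt17 lie on chromosome 7, from 4542756 to 4550922 and from 117979934 to 118055470, both on the minus strand, and Syt13 spans chromosome 2 from 92745339 to 92790093 on the plus strand. Syt17 overlaps no annotated gene. Syt2 overlaps Ppp1r12b and Syt11 overlaps Rit1, each on the other strand, Syt1 overlaps Brcc3dc on its own strand, and the further overlaps are with predicted genes or a pseudogene. Whether strand was used in counting is not given in the sources used here, so reads from such overlaps cannot be told apart.

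Across the depth of the V1 regions, Syt6 was the member with the steepest gradient, low from their top down and high at their bottom in each species. A gene was called past the fold where its pooled level differed by at least 1.5-fold and in the same direction in every V1 region, over genes with at least 100 UMIs in V1. Opossum Syt17, with 31 UMIs in V1, fell below that minimum, which left 6 opossum and 9 mouse members. Between the lower and the upper tertile of depth, 1 of 6 opossum members passed, Syt6, against 14.7% of all 8846 genes tested. In the mouse 3 of 9 passed, with Syt6 and Syt7 higher below and Syt17 higher above, against 8.81% of 11402 genes. Between L6CT and IT_A, 1 of 6 opossum members passed (17.6% of all genes), again Syt6. Between L6CT and L2/3, 3 of 9 mouse members passed (9.87% of all genes), and they were Syt6, Syt7 and Syt17. Between the Pvalb subclass and the glutamatergic subclasses, 2 of 6 opossum members passed, with Syt2 higher and Syt6 lower (17.2% of all genes), and 1 of 9 mouse members, Syt2 (12.8%). The opossum Syt6 call rested on L6CT, and it was not made once L6CT cells were left out of the glutamatergic subclasses. Between the non-neuronal and the glutamatergic subclasses, 0 of 6 opossum members passed against 18.6% of all genes, and 0 of 9 mouse members against 6.23%. With L6CT left out of the glutamatergic subclasses, a comparison chosen after seeing the data, Syt6 was higher in non-neuronal cells of each species, and opossum Syt13 lower. The share of all genes that passed in that comparison is not given here, and 18.6% and 6.23% do not apply to it. In the contrast with all glutamatergic subclasses the summed level of the glutamatergic markers was 4.61 in non-neuronal and 7.00 in glutamatergic opossum cells, with 1 of 3 markers higher in the former, and 15.5 and 16.1 in the mouse, with 1 of 4 higher. The median difference over the members was 0.28 (log2) for opossum depth and -0.00 for mouse depth, beside 0.03 and 0.00 over all genes tested.

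**Figure D1:**
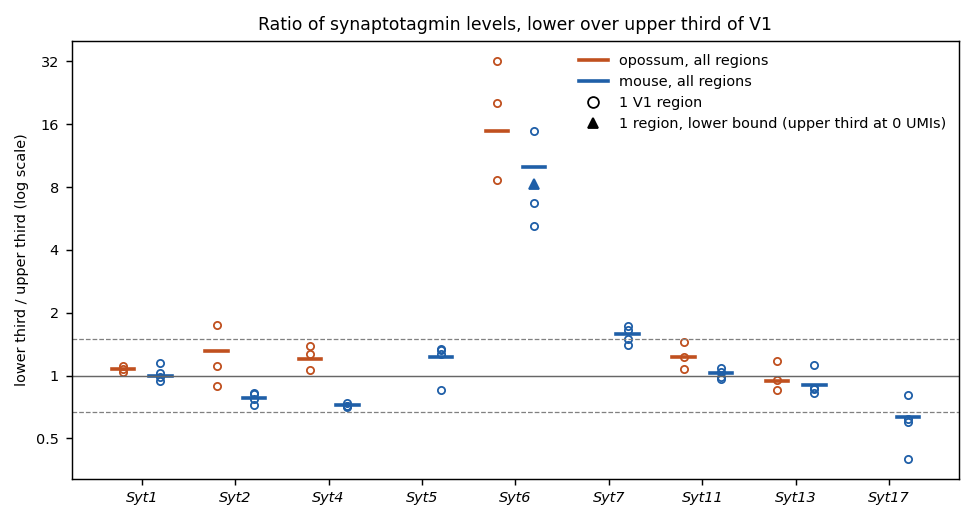
Ratio of the level in the lower tertile of V1 depth to that in the upper tertile (log scale) for each synaptotagmin with at least 100 UMIs; thick bars pool all regions of a species, circles are single V1 regions, the triangle is a lower bound where the upper tertile held 0 UMIs, and dashed lines mark 1.5-fold either way. The Syt6 circles rest on 1 to 12 UMIs in the upper tertile, and the triangle leaves out counting error in the lower tertile. Syt6 stands apart at 14.8 for the opossum and 9.93 in the mouse, and Syt4 lies above 1 for the opossum and below 1 in the mouse.

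Syt1, the calcium sensor of fast release at most forebrain synapses, was found in every subclass. Its level over all V1 cells was 21.4 (21.1 to 21.8) in the opossum, with a range of 19.6 to 22.1 over regions, and 17.5 (17.3 to 17.7) in the mouse, with a range of 16.8 to 17.9. With depth it formed a shallow arch: the mouse level was 15.9 in the top bin of V1, 18.9 between 40% and 60% of depth and 15.8 in the bottom bin. The opossum level rose from 18.8 at the top to 23.3 between 40% and 50% of depth, and stood at 20.9 at the bottom. By subclass label, the highest opossum level was in IT_C, an intratelencephalic subclass, at 27.7 (26.1 to 29.4), with 28.3, 29.4 and 23.0 in the 3 regions. The highest mouse level was in L5IT at 24.0 (21.9 to 26.1), with 26.0, 19.5, 23.0 and 26.7 in the 4 regions. The Sst label came next in each species, at 25.6 and 21.7, and overlapped the first in counting interval and in region range. The lowest were the opossum Micro and Astro labels at 17.3 and 17.4, and the mouse Endo and Micro labels at 13.8 and 14.1. Non-neuronal cells held 0.832 of the glutamatergic level in the opossum (regions 0.751 to 0.936) and 0.869 in the mouse (0.848 to 0.910), so every region was lower by less than 1.5-fold. The Pvalb subclass lay below the glutamatergic subclasses too, at a ratio of 0.897 for the opossum and 0.853 in the mouse.

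Syt2, the fast sensor of many inhibitory and hindbrain synapses, was highest in the Pvalb subclass of the opossum and stood highest in the L5IT, Pvalb and L5PT subclasses of the mouse. Opossum Pvalb cells held 2.08, 2.06 and 0.654 UMIs per 10000 in regions 1, 2 and 3, from 43, 56 and 5 UMIs. Glutamatergic subclasses of the same regions held 0.401, 0.484 and 0.414. The Pvalb level was above the glutamatergic one in each region, least in region 3, and the pooled ratio was 4.30 (3.35 to 5.49). Pvalb cells were 7.37% of the opossum V1 cells and held 25.2% of the Syt2 UMIs. The next label in order, OPC at 0.876, lay below the counting interval of Pvalb (1.53 to 2.27), while region ranges overlapped, and all further neighbours in the order overlapped.

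In the mouse, Pvalb cells held Syt2 at 0.475, 0.544, 0.971 and 1.57 in regions 1 to 4, from 22 UMIs in all. Glutamatergic subclasses held 0.274, 0.379, 0.385 and 0.388, below Pvalb in every region, and the pooled ratio was 2.36 (1.46 to 3.66). L5IT stood at 0.938 (0.573 to 1.45) and L5PT, the pyramidal tract neurons, at 0.641 (0.439 to 0.905), and neither was separated from Pvalb at 0.809 (0.507 to 1.22) by counting error. L5NP, the near-projecting neurons of that layer, held 0.125, from 1 UMI in 60 cells. The 4 L5IT values, 1.09, 0.489, 0.297 and 2.01, spread widely over 2 to 10 UMIs a region. By depth, mouse Syt2 was 0.331 at the top, peaked at 0.687 between 50% and 60% and at 0.631 in the next bin, and stood at 0.144 in the bottom bin. The opossum profile held peaks of 0.902 between 40% and 50% and of 0.901 between 70% and 80%, with 0.314 in its lowest bin, between 10% and 20%. Within opossum Pvalb cells the level was 1.49, 1.66 and 2.35 from the upper to the lower tertile, with overlapping intervals. After each cell was thinned to 300 UMIs, 4.39% (2.48 to 7.13, exact Clopper-Pearson) of opossum Pvalb cells held a Syt2 UMI, against 1.32% (0.755 to 2.13) of non-neuronal cells. The corresponding mouse shares, 1.75% (0.363 to 5.04) and 0.967% (0.554 to 1.57), had overlapping intervals at this depth. Intervals of shares of cells, here and below, count the cells of 1 animal as independent and do not describe the spread between animals. Without thinning, the shares were 17.8% and 5.57% for the opossum, and 7.47% and 3.50% in the mouse. Shares of glutamatergic cells are not given here, so these values do not bear on the ratio of Pvalb to glutamatergic subclasses. Glutamatergic markers moved with the contrast: their summed level was 3.67 in Pvalb and 7.00 in glutamatergic opossum cells, with 0 of 3 higher in Pvalb, and 12.6 and 16.1 in the mouse, with 0 of 4 higher. Their part in the Syt2 values was not tested. With every cell thinned to 300 UMIs, Syt2 no longer passed the rule for Pvalb in either species, nor did it in cells labelled in the first round.

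**Figure D2:**
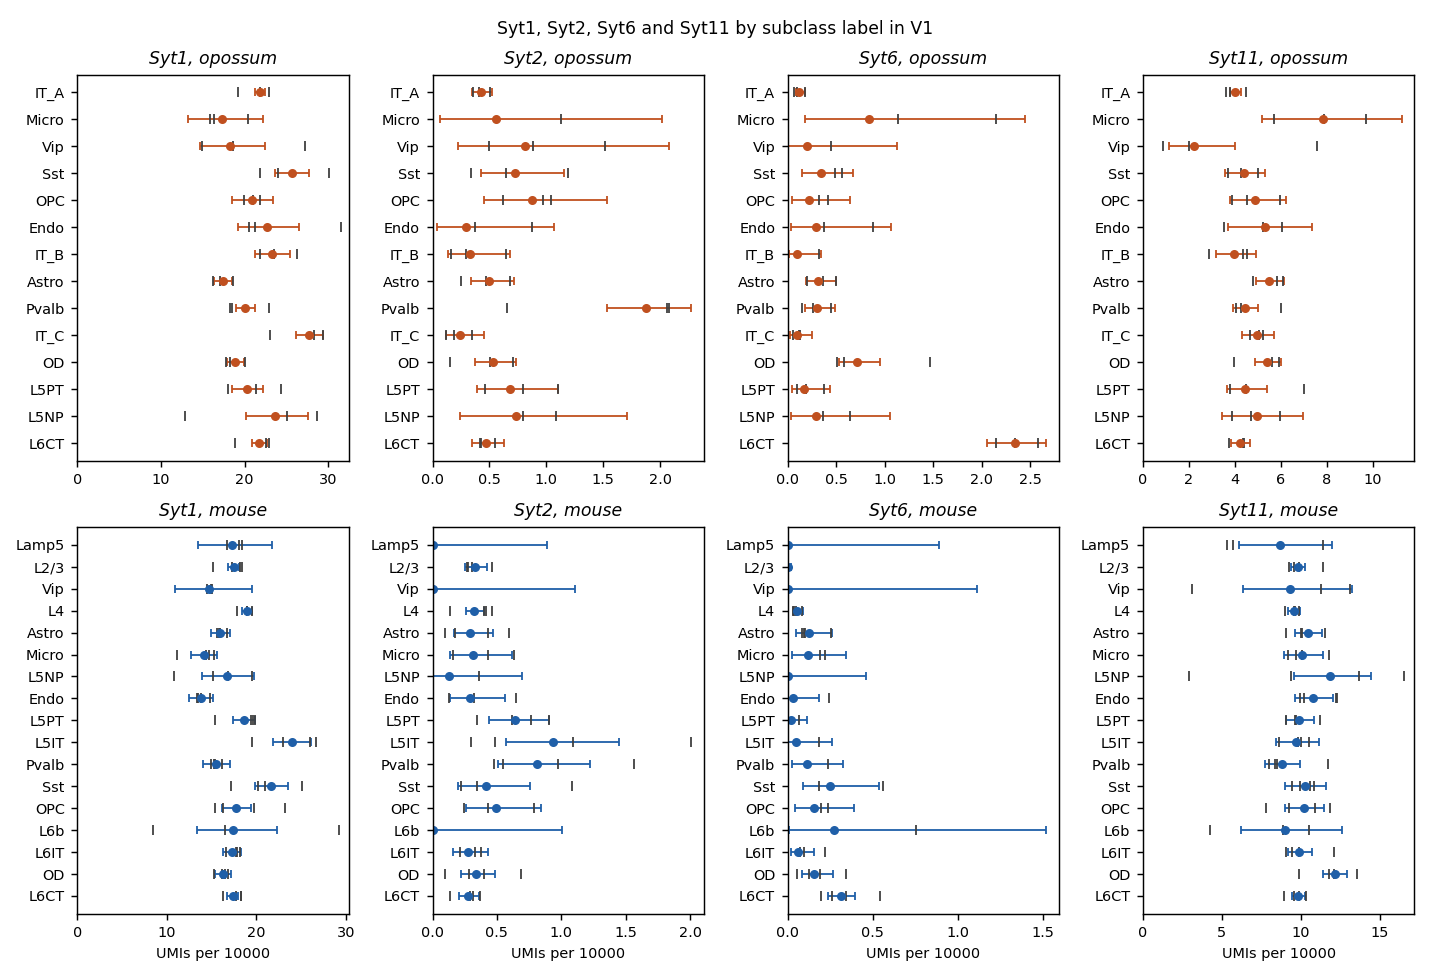
Levels of Syt1, Syt2, Syt6 and Syt11 (UMIs per 10000) by subclass label, ordered from the shallowest at the top to the deepest at the bottom, in the opossum (upper row) and the mouse (lower row). Circles with bars are pooled levels with 95% Poisson intervals, and ticks are single regions with at least 5 cells of the subclass; opossum Syt2 stands out in Pvalb at 1.87 and Syt6 in L6CT at 2.35.

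Syt5 and Syt7 were measured in the mouse alone. Syt5, a vesicle synaptotagmin also found on dense-core vesicles, stood at 1.10 (1.04 to 1.16) over V1. Its level ranged from 0.889 between 40% and 50% of depth to 1.45 in the bottom bin, and the tertile ratio of 1.22 was not shared by all regions, which ran from 0.853 to 1.35. By label, Astro at 1.46 and Endo at 1.24 were followed by L6CT at 1.22, and every neighbour in the order overlapped.

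Syt7, the high-affinity sensor, was higher deep in mouse V1. The upper tertile held 1.55, 1.52, 1.34 and 1.79 in regions 1 to 4 and the lower tertile 2.56, 2.26, 2.33 and 2.51. The tertiles did not overlap, and the pooled ratio was 1.58 (1.43 to 1.74), with 1.40 to 1.74 over regions. The profile was not steady: it fell from 1.72 at the top to 1.33 between 20% and 30% of depth, reached 2.40 between 40% and 50%, returned to 1.73 between 60% and 70%, and ended at 2.71. L6CT cells held 3.00, 2.90, 2.98 and 2.70 by region, and L2/3 cells 1.49, 1.43, 1.62 and 1.75. No region of one label reached any of the other, and the ratio was 1.87 (1.62 to 2.16). Endo at 2.48 and OD, the oligodendrocytes, at 2.41 came after L6CT at 2.91 in the order, each overlapping its neighbour. Without L6CT cells the levels were 1.51 in the upper and 2.14 in the lower tertile, and Syt7 no longer passed the fold. GABAergic subclasses held 1.31, 1.59 and 1.17 from top to bottom, with overlapping intervals. These rest on few UMIs, with 5 in Pvalb cells of the upper tertile and 10 in those of the lower. A rise of this size could therefore not be judged there. Summed oligodendrocyte markers also rose with depth, from 15.5 to 35.8 in the mouse, with 4 of 4 higher in the lower tertile and none at 0, and region ranges of 9.29 to 20.0 and 32.3 to 39.5. Their part in the depth results was not tested. Within the glutamatergic class label, which includes L6CT cells, the Syt7 levels were 1.54, 1.97 and 2.57 from the upper to the lower tertile. Without L6CT cells this class held 1.48, 1.94 and 1.99.

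Syt4, which is induced by activity and resides on dense-core and postsynaptic vesicles, ran in opposite directions with depth in the 2 species. Opossum levels in regions 1, 2 and 3 were 3.25, 2.49 and 3.14 in the upper tertile and 3.47, 3.15 and 4.35 in the lower. Mouse levels were 4.62, 4.95, 4.92 and 5.37 in the upper tertile and 3.43, 3.55, 3.47 and 3.85 in the lower. Each opossum region was higher below, by a pooled ratio of 1.19 (1.08 to 1.32), and each mouse region was lower below, by 0.726 (0.679 to 0.776). Neither passed the 1.5-fold rule, and in opossum regions 1 and 2 the intervals of the tertiles overlapped. The mouse profile declined from 4.94 in the top bin to 3.05 in the bottom bin, whereas the opossum profile stayed between 2.77 and 3.08 down to 80% of depth and stood at 3.81 and 3.89 in the last bins. Opossum L6CT cells held Syt4 at 3.87 (3.49 to 4.27) against 2.78 (2.57 to 3.01) in IT_A, a ratio of 1.39 (1.22 to 1.58). In mouse L6CT the level was 3.45 (3.19 to 3.71) against 4.39 (4.09 to 4.70) in L2/3, a ratio of 0.785 (0.708 to 0.870). Without L6CT cells the opossum tertiles were 2.95 (2.72 to 3.19) and 3.21 (2.95 to 3.49), with overlapping intervals, and the mouse tertiles 4.89 (4.67 to 5.11) and 3.70 (3.48 to 3.94). In mouse non-neuronal subclasses the level was 4.55 (3.97 to 5.20) in the upper and 3.49 (3.15 to 3.86) in the lower tertile, and the intervals did not overlap. Mouse OD went from 5.29 to 3.48, Astro from 4.74 to 3.29 and GABAergic subclasses from 4.27 to 3.01, each with overlapping intervals. The opossum levels overlapped in all of these groups, at 3.69 and 3.45 in non-neuronal subclasses, 4.44 and 3.40 in OD, 2.85 and 3.83 in Astro, and 2.66 and 2.97 in GABAergic subclasses. Of these, OD and the non-neuronal sum were lower below, unlike the pooled level. Oligodendrocyte markers were higher in the lower tertile of the opossum as well, with 3 of 3 higher and a summed level of 55.1 (regions 50.9 to 60.9) against 21.5 (18.4 to 22.7), and cells of the lower tertile held more UMIs, with medians of 1700.5 and 1198 UMIs for the opossum and 1496 and 1141 in the mouse. Their part in the Syt4 values was not tested.

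Syt11, a relative of Syt4 that restrains endocytosis, was found under all labels and was higher in non-neuronal cells of every opossum region. Its level over V1 was 4.51 (4.35 to 4.67) for the opossum and 10.3 (10.1 to 10.4) in the mouse. In the opossum the non-neuronal level was 5.45 and the glutamatergic one 4.20, a ratio of 1.30 (1.20 to 1.41), with 1.21 to 1.43 over regions. Opossum Micro led at 7.81 (5.19 to 11.3), from 28 UMIs in 32 cells, and Astro at 5.50 and OD at 5.41 followed within the error. In the mouse OD led at 12.2 (11.4 to 12.9), with 13.5, 11.8, 9.91 and 12.1 by region, and the ratio of non-neuronal to glutamatergic cells was 1.14 (1.08 to 1.19), with 0.960 to 1.20 over regions. By depth it ranged from 9.34 to 11.5 over the mouse bins and from 3.66 to 5.21 over the opossum bins.

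**Figure D3:**
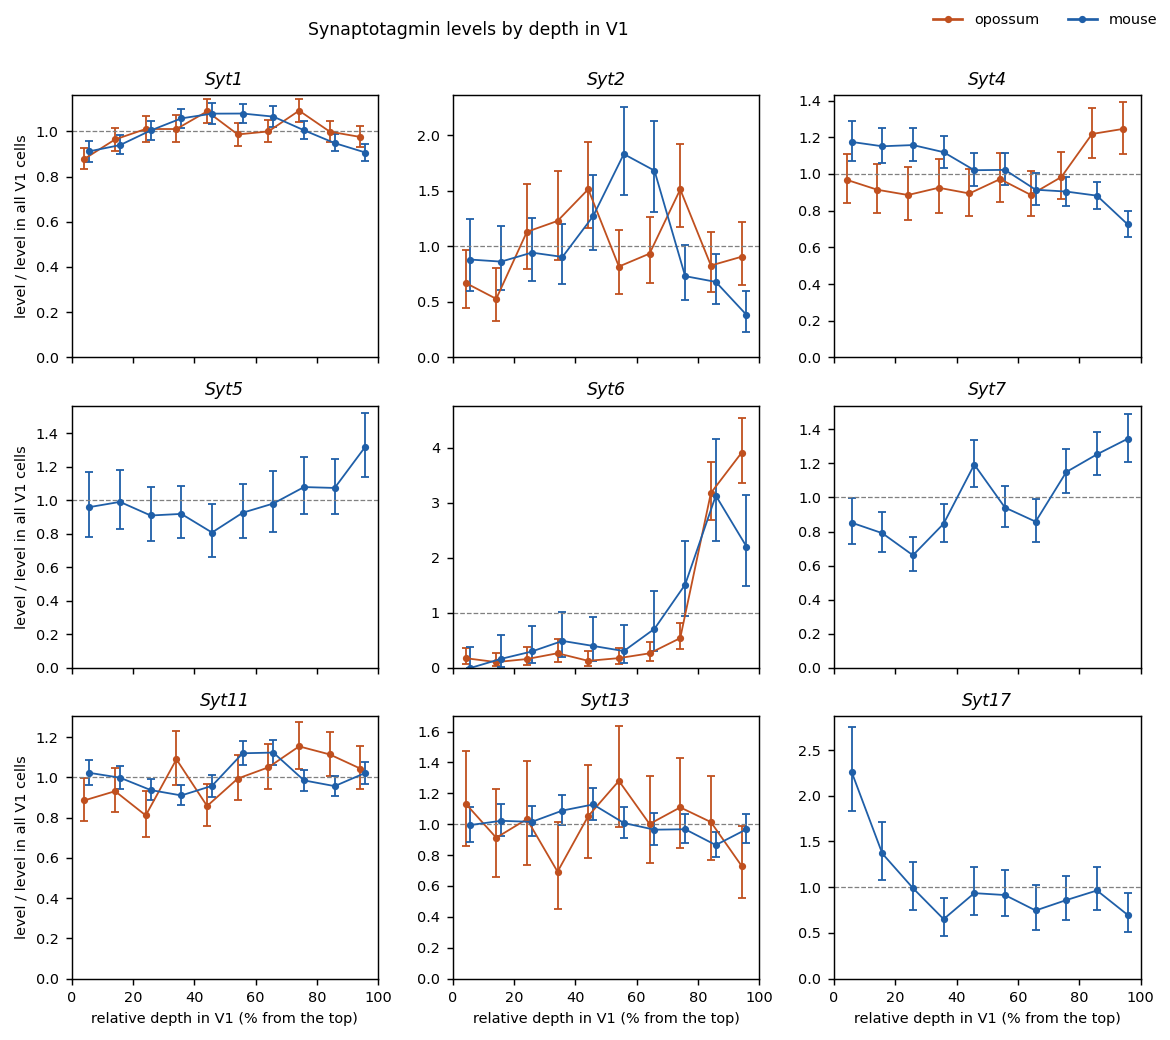
Level of each synaptotagmin in 10 equal bins of relative V1 depth (% from the top), divided by its level in all V1 cells of the same species, with 95% Poisson intervals; the dashed line is the V1 level. Syt6 climbs in the last bins of both species, mouse Syt2 peaks between 50% and 70% of depth, mouse Syt17 is highest at the top, and Syt4 runs in opposite directions.

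Syt6, which is best known from the acrosome of sperm and from layer 6 corticothalamic neurons, was concentrated at the bottom of V1. Opossum levels in regions 1, 2 and 3 were 0.136, 0.0373 and 0.0952 in the upper tertile, from 19 UMIs in all, and 1.18, 1.20 and 1.93 in the lower, from 347 UMIs. Mouse levels were 0.0315, 0.0484, 0.0121 and 0 in the upper tertile, from 9 UMIs, and 0.212, 0.253, 0.180 and 0.293 in the lower, from 104. No region overlapped between tertiles, and the pooled ratios were 14.8 (9.33 to 24.9) for the opossum and 9.93 (5.03 to 22.3) in the mouse. Mouse region 4, with 0 UMIs above, was at least 8.23-fold higher below, with the upper tertile set to a floor of 3 counts in that region. That bound uses the point level below, from 30 UMIs, and leaves out its counting error (0.197 to 0.418). The opossum profile ranged from 0.0598 to 0.305 over the upper 8 bins, with the highest in the last of them, and then stepped to 1.79 and 2.20. The mouse profile lay between 0 and 0.0732 in the upper 7 bins and reached 0.156, 0.322 and 0.227 in the last 3. The mean relative depth of Syt6, from 0 at the top to 1 at the bottom, was 0.798 for the opossum and 0.732 in the mouse, beside 0.493 and 0.487 for the UMIs of all genes. It exceeded that of all UMIs by 0.265 to 0.342 over opossum regions and by 0.178 to 0.300 over mouse regions.

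By label, Syt6 was highest in L6CT in each species. In the mouse L6b, a further layer 6 label, at 0.273 from 1 UMI, and Sst, at 0.247 from 6 UMIs, followed L6CT at 0.310. Each overlapped its neighbour in the order. The opossum had no L6b label with at least 25 cells, and none of IT_D, which the paper mapped to mouse L6IT, so these were not compared. Opossum L6CT cells held 2.14, 2.58 and 2.35 by region and IT_A cells 0.182, 0.0647 and 0.0967, so that the labels lay far apart, with a ratio of 19.5 (13.2 to 30.0). Mouse L6CT cells held 0.195, 0.341, 0.261 and 0.539, from 62 UMIs, and L2/3 cells held none in any region. This makes L6CT at least 19.1-fold higher with L2/3 set to a floor of 3 counts over the group, leaving out the counting error of L6CT. Oligodendrocyte markers were also higher in L6CT, at a summed level of 46.5 against 24.1 in IT_A (3 of 3 higher) and of 28.2 against 15.8 in mouse L2/3 (4 of 4 higher), and their part in these values was not tested. L6CT cells carried 60.0% of the opossum Syt6 UMIs and 14.4% of all UMIs, and 48.1% and 16.0% in the mouse. A Syt6 UMI was found in 24.3% of opossum L6CT cells, in 1.69% of IT_A cells and in 5.09% of non-neuronal cells. Thinned to 300 UMIs, these shares were 6.42% (4.53 to 8.77), 0.324% (0.105 to 0.754) and 1.40% (0.818 to 2.23). In the mouse, 3.54% of L6CT cells and 1.30% of non-neuronal cells held one, and 0 of 1438 L2/3 cells did. That count allows a share of up to 0.209% of cells with a Syt6 UMI at this depth, and it sets no limit on cells that express the gene. The thinned mouse shares, 0.727% (0.333 to 1.38) in L6CT and 0.302% (0.0982 to 0.704) in non-neuronal cells, overlapped at this depth.

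Cells of other labels at the same depth carried Syt6 too. In the lower tertile the opossum level was 2.60 (2.28 to 2.96) in L6CT, 1.01 (0.783 to 1.28) in non-neuronal subclasses, 0.772 (0.471 to 1.19) in GABAergic subclasses and 0.535 (0.411 to 0.686) in other cells of the glutamatergic class. In the upper tertile the non-neuronal and GABAergic levels were 0.133 and 0.130. The non-neuronal cells of the mouse went from 0.0209 to 0.211 (0.133 to 0.316), beside 0.338 (0.258 to 0.437) in L6CT of the lower tertile. In the order of opossum labels, Micro (0.836, from 3 UMIs in 32 cells) came second, with an interval that overlapped L6CT, and OD (0.718) came after it. Opossum OD cells held 0.202 (0.00511 to 1.12) in the upper and 1.08 (0.791 to 1.45) in the lower tertile. The 45 opossum cells labelled L6CT in the upper tertile and the 60 in the middle one held 1 Syt6 UMI each as a group, at 0.249 and 0.150. Whether RNA of neighbouring cells contributed to these values was not tested. In the opossum, Syt6 was lower in the Pvalb subclass than in glutamatergic subclasses, at 0.306 against 0.642, a ratio of 0.477 (0.274 to 0.778). L6CT carried 234 of the 274 glutamatergic UMIs, and without it the difference changed sign, to 1.32 on the log2 scale with Pvalb higher, though not past the rule. The other glutamatergic labels ran from 0.0943 in IT_B to 0.293 in L5NP, below the Pvalb value, which rests on 17 UMIs. In the lower tertile Pvalb cells held 0.715 (0.391 to 1.20).

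**Figure D4:**
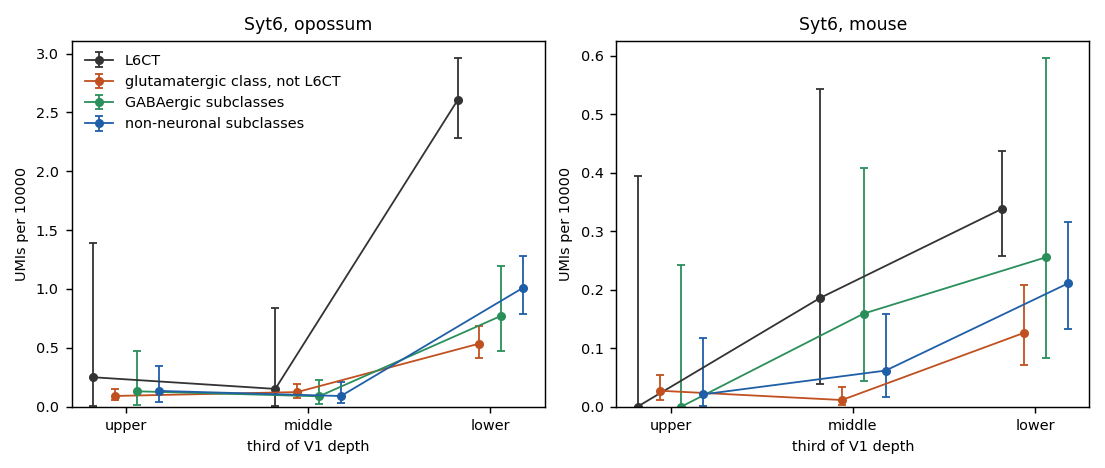
Syt6 level (UMIs per 10000, with 95% Poisson intervals) in the upper, middle and lower tertile of V1 depth for L6CT cells, other cells of the glutamatergic class, GABAergic subclasses and non-neuronal subclasses; the vertical scales differ between species. All 4 groups of cells are highest in the lower tertile, where opossum L6CT at 2.60 lies above the rest. Mouse L6CT rests on 0, 3 and 59 UMIs from the upper to the lower tertile, with overlapping intervals. Mouse GABAergic values rest on few UMIs over all depths, 6 in Sst and 3 in Pvalb, and Pvalb held 0 in the lower tertile.

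Syt13, an atypical member whose C2 domains lack calcium-binding residues, did not pass the fold in any contrast under the main settings. In the opossum it was called for non-neuronal cells under some alternatives, which are given at the end. Its V1 level was 0.705 (0.644 to 0.771) for the opossum and 3.29 (3.19 to 3.40) in the mouse, and the tertile ratios were 0.943 (0.755 to 1.18) and 0.901 (0.835 to 0.972), neither shared by all regions. Opossum Pvalb cells held 1.15 against 0.692 in glutamatergic subclasses, a ratio of 1.67 that ran from 0.790 to 3.24 over regions and so was not called. Opossum non-neuronal cells held 0.473, a ratio of 0.684 (0.521 to 0.887), lower in every region (0.612 to 0.886). Of the non-neuronal labels, Endo had the highest level of any opossum label, at 1.62 (0.808 to 2.90) from 11 UMIs in 65 cells, whereas OD had the lowest, at 0.396, and every neighbour in the order overlapped. In the mouse the leading labels were the interneurons Vip at 4.81 and Lamp5 at 4.57, from 25 and 35 cells, followed by OPC at 4.09 and Sst at 4.00, and every neighbour in the order overlapped.

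Syt17, which is found on the secretory pathway and early endosomes, was higher in the upper part of mouse V1. Levels in regions 1 to 4 were 0.530, 0.855, 0.496 and 0.747 in the upper tertile and 0.429, 0.341, 0.306 and 0.449 in the lower. The lower tertile was below the upper one in every region, and the pooled ratio was 0.631 (0.517 to 0.770). The call was not made without region 2, by the mean over cells, after thinning or with unscaled depth. Nor was it made with V1 divided at the middle of its depth. By depth the level was 1.06 in the first of the 10 bins, 0.639 in the second and 0.304 to 0.462 in the rest. L2/3 cells led at 0.867 (0.738 to 1.01), with 0.786, 0.989, 0.675 and 1.04 by region. L4 cells held 0.347 (0.278 to 0.428) and L6CT cells 0.395 (0.313 to 0.493), and the ratio of L6CT to L2/3 was 0.456 (0.344 to 0.600). Lamp5 at 0.721, from 35 cells, came next and was not separated from L2/3. The 31 opossum UMIs, at 0.0447 (0.0304 to 0.0635), were 5, 7 and 19 from the upper to the lower tertile and none was in region 3 below the upper tertile, too few for a profile.

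**Figure D5:**
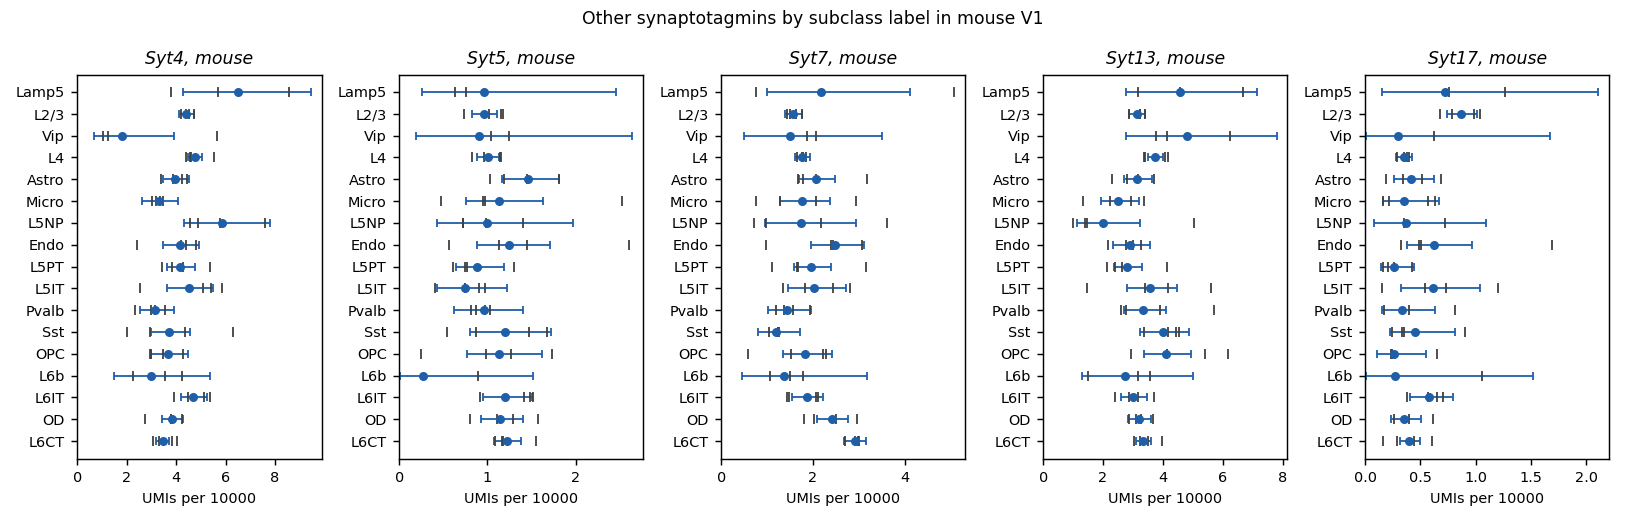
Levels of Syt4, Syt5, Syt7, Syt13 and Syt17 (UMIs per 10000) by subclass label in mouse V1, ordered by depth from top to bottom; circles with bars are pooled levels with 95% Poisson intervals and ticks are single regions with at least 5 cells. Syt7 is highest in L6CT at 2.91 and Syt17 in L2/3 at 0.867.

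Of the 8 remaining synaptotagmins listed, 4 had an opossum feature and 3 passed the UMI minimum, and 5 of 8 passed in the mouse. With depth 1 of 3 passed the fold in the opossum, Syt16, at 1.00 above and 0.354 below, beside 14.7% of all genes. In the mouse 2 of 5 passed, with Syt3 at 0.108 above and 0.188 below and Syt14 at 0.351 and 0.193, beside 8.81%. Between L6CT and the upper intratelencephalic labels, opossum Syt16 was again lower (0.271 against 1.07), as 1 of 3 beside 17.6% of all genes, and 0 of 5 passed in the mouse, beside 9.87%. In the Pvalb subclass 0 of 3 passed for the opossum (17.2% of all genes), and in the mouse 2 of 5 did (12.8%), as Syt12 and Syt16 were lower, from 2 and 14 UMIs, with at least 1 region at 0. Non-neuronal cells had less Syt14 and Syt16 for the opossum, 2 of 3 against 18.6% of all genes, and more Syt9 and less Syt14 in the mouse, 2 of 5 against 6.23%, where Syt9 stood at 0.234 against 0.0983.

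The list of release machinery, the SNARE proteins, their chaperones, active zone scaffolds and Rab3 partners on which synaptotagmins act, held 23 opossum and 32 mouse genes past the UMI minimum. With depth 2 were higher and 3 lower for the opossum (14.7% of all genes passed), and 2 higher and 2 lower in the mouse (8.81%). Rab3b, a vesicle GTPase, was higher below in each species, by ratios of 2.16 and 2.19, as was Cplx1, a complexin that clamps the SNARE complex, in the opossum (1.92) and Cplx3 in the mouse (2.72). Rims3, a small active zone protein, was lower below in each, at 0.479 and 0.539. In L6CT 3 opossum genes were lower, Rimbp2 (0.386), Rab3c (0.390) and Rims3 (0.456), where 17.6% of all genes passed. In mouse L6CT Cplx3 and Rab3b were higher and Rims3 lower, where 9.87% passed. In the Pvalb subclass the opossum had 2 higher, Rab3b (2.02) and Cplx1 (1.81), and 4 lower, beside 17.2% of all genes. The mouse had Vamp1, the vesicle SNARE of fast-spiking interneurons, higher at 1.91 and Syn1 lower at 0.576, beside 12.8%. Non-neuronal cells had 8 lower and 0 higher for the opossum and 3 lower and 0 higher in the mouse, beside 18.6% and 6.23% of all genes, led by Rims1 (0.359) and Rims2 (0.371) for the opossum and Rims2 (0.539) and Unc13b (0.590) in the mouse. Cplx1 had 2 features of that symbol in the mouse and was left out there.

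Genes whose levels across the 14 opossum or 17 mouse subclass labels ran most like a member were ranked by Pearson's r, as a description, since all points share a library and small labels hold few UMIs. For opossum Syt6 they were KIT (r = 0.94), FOXP2 (0.93) and FGF10 (0.89), and for mouse Syt6 Gadd45a (0.80), Ehd1 (0.79) and Jup (0.78). For opossum Syt2 they were RND3 (0.94), a feature without a symbol, ENSMODG00000000783 (0.91), and GAD1 (0.90), which makes GABA, and for mouse Syt2 Slc9a5 (0.90), Usp42 (0.88) and Myh10 (0.87). For opossum Syt1 the named ones were VWA8 (0.81) and ARMH4 (0.80), and for mouse Syt1 Efna5, Pitpna and Atp23 (0.80, 0.79 and 0.76). For Syt4 they were RPS7, SULT4A1 and ANKRD11 in the opossum (0.89, 0.88 and 0.86) and Rlim, Gtpbp4 and Zscan12 in the mouse (0.90, 0.90 and 0.88). For Syt11 they included RPS27 in the opossum (0.93) and Slc48a1 (0.86), Rps27rt (0.84) and Rpl19 (0.81) in the mouse, and for Syt13 CLPTM1L (0.88) and KLHL5 (0.85) for the opossum and Sil1 (0.89), Nr1d1 (0.87) and Elmsan1 (0.86) in the mouse. For the mouse members without an opossum profile they were Stx6 (0.86), Eif5 (0.84) and Oxa1l (0.80) for Syt5, Pdlim1 (0.78), Sik1 (0.73) and Gpx1 (0.70) for Syt7, and Stard8 (0.89), Wapl (0.73) and Rgs6 (0.72) for Syt17. No gene was named for both species of any member.

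The cells of each species outside the V1 regions gave a further reference. Those regions are columns within V1, so the cells outside them can include further V1 cells. V1 in this paragraph means the regions alone. Syt1 was higher in V1 than outside it, at 21.4 against 13.3 for the opossum and 17.5 against 14.9 in the mouse. Syt6 was higher in V1 as well, at 0.562 against 0.297 and at 0.103 against 0.0624. Syt2 differed in direction, at 0.596 in V1 and 0.915 outside for the opossum, with mouse levels of 0.375 and 0.241. Syt17 was lower in V1, at 0.467 against 0.882 in the mouse and 0.0447 against 0.103 in the opossum. Syt5, Syt7 and Syt11 of the mouse and Syt11 and Syt13 of the opossum lay within 10% of the level outside. Which areas and layers lay outside the regions was not compared between the species.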

How the data were processed

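The authors processed Stereo-seq reads with the SAW pipeline, aligned them to a custom opossum genome or to the mouse genome, segmented cells, removed cells with few genes or UMIs, and transferred subclass labels from single-nucleus data of the same species by nearest neighbours. They deposited the count of UMIs of each gene in each cell, with coordinates and labels. Cells passing the authors' column filter in V1 were used, and relative depth was scaled between the top and bottom of each region. The depth axis of a region and its top end were chosen from the median positions of cells labelled L6CT and IT_A or L2/3. Depth was therefore not wholly independent of the labels. Counts were summed over cells and divided by all UMIs of the same cells. Genes named as alike were the 3 with the highest Pearson's r across subclass labels with at least 25 cells. The members, lists and contrasts were chosen with earlier results of these data known. Scripts ran in Python 3.11.15 with pandas 2.3.3, scipy 1.17.1, shapely 2.1.2, numpy 2.4.6 and matplotlib 3.10.9, and the contrast was tested on simulated data. Alternatives changed the cell filter, the fold, thinning to 300 UMIs, the depth scale, the label round and the regions used. Regions held 1573 to 3550 cells in the mouse and 1212 to 1855 in the opossum.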

Additional observations from a re-analysis of the deposited data

Results flagged for a closer look

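Syt4 ran in opposite directions in the 2 species in each of a pair of contrasts, in every V1 region, and neither difference was tested. Between the lower and the upper tertile of depth the ratio was 1.19 in the opossum (1.07 to 1.39 over regions) and 0.726 in the mouse (0.707 to 0.742), a difference of 0.72 on the log2 scale. Between L6CT and the upper intratelencephalic label it was 1.39 in the opossum (1.26 to 1.66) and 0.785 in the mouse (0.697 to 0.918), a difference of 0.82. In opossum regions 1 and 2 the counting intervals of the tertiles overlapped. The 2 contrasts share the L6CT cells, and without those the opossum tertiles were 2.95 and 3.21, with overlapping intervals. No group held 4 or more animals, so no sample could be checked as standing apart from its group.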

How the results depend on the processing

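Of 100 counts of members past the fold under an alternative, 78 stayed within 1.5 times the reported count and 22 moved. Of 130 log2 ratios 117 moved by less than the spread between regions, 12 by more, and 1 reversed. The highest depth bin stayed in 27 of 32 depth profiles and moved in 5, which were Syt1 of each species, opossum Syt2 and Syt13 and mouse Syt11. With L6CT left out of the glutamatergic subclasses, chosen after seeing the data, opossum Syt6 turned from lower to higher in Pvalb, by 1.32 on the log2 scale. That choice left 1 opossum member for Pvalb (Syt2), and gave 2 opossum members (Syt6, Syt13) and 1 mouse member (Syt6) for non-neuronal cells. Syt6 passed the depth and L6CT contrasts under every alternative run in each species. A threshold nearer to 1 gave 2 opossum members for L6CT (Syt4, Syt6) and 2 for non-neuronal cells (Syt11, Syt13), where 29.2% and 32.8% of all genes passed. It gave 5, 3 and 1 mouse members for depth, Pvalb and non-neuronal cells, where 17.8%, 15.5% and 13.2% of all genes passed, while a fold of 2 gave 1 mouse member for depth (Syt6), beside 3.2% of all genes. Dividing V1 at the middle of its depth also gave 1 in the mouse (Syt6), and leaving L6CT cells out of the depth contrast, likewise a later choice, gave 2 in the opossum (Syt2, Syt6). Thinning every cell to 300 UMIs gave 0 opossum and 2 mouse members for Pvalb (Syt4, Syt5), so Syt2 was not called there in either species, nor with labels of the first round, and 1 opossum member for non-neuronal cells (Syt13). Stricter cell filters each gave 1 in that last contrast (Syt13), and cells labelled in the first round gave 2 (Syt6, Syt11), and 2 in the mouse (Syt5, Syt17). With regions left out one at a time there were 0 to 2 opossum members for non-neuronal cells, with 2 without region 3, and 1 to 3 mouse members for Pvalb, with 3, 2 and 2 without regions 1, 2 and 3. Mouse Syt17 was not called with depth without region 2, by the mean over cells, after thinning or with unscaled depth, and mouse Syt7 was not called without L6CT cells. The share of all genes past the rule is printed above only for the changed folds. The other counts have no such share beside them and are not read as results about the members. The causes were not tested. No paired analysis was possible because each species had 1 animal and no test was made. Low counts limited Syt6 in the mouse, Syt2 in mouse Pvalb cells and Syt17 in the opossum.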
